A study of Mus musculus with 17 samples.

Results

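The RNAs described here are 9 mouse long noncoding RNAs: the nuclear RNAs Malat1 and Neat1, and the small nucleolar RNA (snoRNA) host genes Gas5, Snhg1, Snhg3, Snhg5, Snhg6, Snhg8 and Snhg12. They were taken by gene symbol, 9 of the 24594 genes in the count tables. The rule itself uses no measured value, but the members were chosen with earlier results of these data known. All 9 passed the filter on low counts, as did 13881 genes in all. The cells were splenic CD8 T cells carrying the congenic marker Thy1.1 (labelled CD8+Thy1.1+), and libraries were made from total RNA with a stranded kit, per the labels. The 17 libraries comprised 5 labelled Rosa KO, used here as the control, and 4 each labelled Asxl1 KO, Dnmt3a KO and Tet2 KO. Dnmt3a methylates DNA, Tet2 oxidises the methylated base and Asxl1 belongs to the complex that removes ubiquitin from histone H2A. By its title, the series concerns these genes in the stemness of CD8 T cells under immunotherapy. The labels do not say how the knockouts were made or whether replicates came from separate animals, so p-values cover only the library-to-library spread, which could be technical. Protocols and series type describe RNA although the molecule field says genomic DNA, and the tables were taken as RNA-seq.

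By library number, the libraries formed 3 separate runs, a term used here since the labels name no batch. Run 1 held Rosa KO 1, Asxl1 KO 1 and Dnmt3a KO 1 and 2. Run 2 held Asxl1 KO 2, Dnmt3a KO 3 and 4 and Tet2 KO 1 and 2, with no Rosa KO library. Run 3 held Rosa KO 2 to 5, Asxl1 KO 3 and 4 and Tet2 KO 3 and 4. Total counts ran from 6625833 to 40701203 per library, and 12901 to 15328 genes had a count in 15 of the libraries, against 16862 and 17940 in Asxl1 KO 3 and 4. All 8 CD8 T cell markers on the list (among them Cd3e and Cd8a) were detected in every library, at a summed 4404 to 11090 CPM (the usual count per gene relative to the size of its library, here scaled by the TMM method). The 8 B cell markers were also detected in every library, at 145.1 to 5323 CPM. In these bulk samples, fewer cells of a type and less RNA per cell cannot be told apart. None of the targeted genes differed in its own knockout by edgeR's quasi-likelihood test: log2 fold change -0.13 ± 0.21 (SE) for Asxl1, -0.06 ± 0.28 for Dnmt3a and -0.26 ± 0.23 for Tet2, with Benjamini-Hochberg adjusted p of 0.836, 0.978 and 0.734. The labels do not say which part of each gene was targeted, so these counts do not check the labels, and each knockout named here is a group as labelled.

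Malat1 and Neat1 are long noncoding RNAs that stay in the nucleus. Malat1 collects in nuclear speckles, bodies rich in splicing factors, and its 3′ end is cut by RNase P. Neat1 is the scaffold on which paraspeckles are built. The snoRNA host genes are transcribed mainly for what lies in their introns: the intron is spliced out and trimmed to a snoRNA, which guides methylation or pseudouridylation of ribosomal RNA. The spliced host RNA is exported, meets the ribosome and is in many cases destroyed by nonsense-mediated decay. Many host genes start with a 5′ terminal oligopyrimidine (TOP) tract, a run of C and T bases at the first transcribed base that they share with ribosomal protein genes and that ties translation of the RNA to growth signals.

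The start sites of the members are shown because 6 of the 7 host genes passed the test in at least 1 comparison between runs, and Malat1 was the member that passed between groups. Windows of 60 bases, 45 before and 15 from the first transcribed base, were read 5′ to 3′ on the transcribed strand from the RefSeq promoter table (build GRCm38.p6), which matched 7 of the 9 members. Neat1 and Snhg6 are named only. Capitals mark the letters TATA lying 16 to 40 bases before the start (the same on both strands), and the longest unbroken run of at least 5 pyrimidines on the transcribed strand within 3 bases before to 10 bases from the start. Both windows were set after the sequences had been read.
Malat1: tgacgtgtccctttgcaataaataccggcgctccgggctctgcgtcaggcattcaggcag
Gas5 start 1: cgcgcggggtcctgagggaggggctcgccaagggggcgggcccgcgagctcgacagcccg
Gas5 start 2: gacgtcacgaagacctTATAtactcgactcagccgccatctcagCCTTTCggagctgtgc
Snhg1: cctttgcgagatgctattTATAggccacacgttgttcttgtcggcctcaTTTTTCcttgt
Snhg3: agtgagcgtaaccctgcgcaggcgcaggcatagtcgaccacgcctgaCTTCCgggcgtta
Snhg5: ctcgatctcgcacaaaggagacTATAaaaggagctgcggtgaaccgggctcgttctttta
Snhg8: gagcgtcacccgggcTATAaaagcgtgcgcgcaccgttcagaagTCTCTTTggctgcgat
Snhg12: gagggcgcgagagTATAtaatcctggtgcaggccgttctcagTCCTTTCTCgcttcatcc

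TATA was found at 5 of the 8 member starts, against 5.91% of the 32851 starts in the table. A pyrimidine run was found at 5 of 8, against 20.4%, and both features together at 4 of 8, against 1.34%. The windows with both were the second Gas5 start, Snhg1, Snhg8 and Snhg12, and within the window searched the pyrimidine run was 9 bases long at Snhg12, 7 at Snhg8 and 6 at Gas5 and Snhg1. The run at Snhg1 goes on past the end of that window. At Snhg1 and Snhg3 it begins after the first transcribed base and does not include it. Snhg5 had TATA 23 bases before its start and no pyrimidine run of at least 5 within the window searched. A longer pyrimidine run at Snhg5 crosses the end of that window and was therefore not marked. Snhg3 had a run of 5 and no TATA. Malat1 and the upstream Gas5 start had neither. The windows lie at chr19:5802658-5802717 (Malat1, minus strand), chr1:161034556-161034615 and chr1:161035121-161035180 (Gas5, plus), chr19:8723442-8723501 (Snhg1, plus), chr4:132353672-132353731 (Snhg3, minus), chr9:88522883-88522942 (Snhg5, minus), chr3:123508322-123508381 (Snhg8, minus) and chr4:132308633-132308692 (Snhg12, plus). A match is a description of these letters.

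Malat1 stood far above the other members. On the scale of CPM per kb of annotated exons (GENCODE vM21), its level had a median of 1529 over the 17 libraries (range 877.5 to 2390), rank 11 of the 13677 tested genes with a length. Gas5 followed with a median of 129.6 (59.39 to 206.6). Next came Snhg1 with 35.88, Snhg8 with 31.68, Snhg3 with 21.65, Snhg6 with 20.03, Snhg5 with 18.78, Snhg12 with 10.21 and Neat1 with 8.895 CPM per kb. From Gas5 to Neat1 the ranges over libraries of neighbours in this order overlapped, while the Malat1 and Gas5 ranges did not overlap. The order below Malat1 depended on the length used, the spliced RefSeq transcript or the union of all exons. With the spliced transcript, Snhg1 had a median of 176.1, Snhg6 57.37, Snhg3 48.86, Snhg12 40.46 and Snhg8 34.82 CPM per kb. No such transcript length was matched to Gas5, so Gas5 cannot be placed in that order. All 9 together took 0.723 to 1.95% of a library's counts, and Malat1 alone 82.6 to 96.9% of that.

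**Figure D1:**
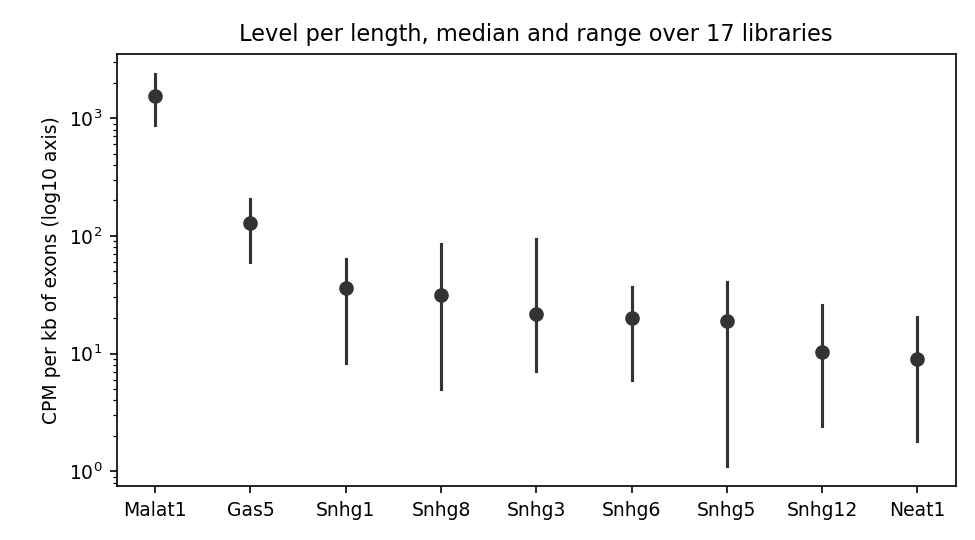
Level of each of the 9 RNAs in CPM per kb of annotated exons, on a log10 axis. Points are medians and lines the lowest and highest of the 17 libraries; Malat1 has a median of 1529 and Neat1, the lowest, 8.895.

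Malat1 (NCBI gene 72289, chr19:5795690-5802672, minus strand, 6983 bases) was lower in the knockouts than in Rosa KO once run was taken into account. In run 3, the Rosa KO libraries had 14210, 10680, 10140 and 15140 CPM (replicates 2 to 5). Asxl1 KO 3 and 4 had 6648 and 6262 CPM, and Tet2 KO 3 and 4 had 6128 and 7807 CPM. All 4 knockout libraries of run 3 lay below all 4 Rosa KO libraries, which was so for 5.23% of tested genes.

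In run 1, Rosa KO 1 had 12330 CPM of Malat1, Asxl1 KO 1 had 7733, and Dnmt3a KO 1 and 2 had 9279 and 8169. Each knockout library was thus below the only Rosa KO library of that run, and 1.78% of tested genes had every knockout library below every Rosa KO library of its run in both runs. Run 2 held no control, and its 5 libraries had 11020 to 16690 CPM, a range that overlaps Rosa KO: Asxl1 KO 2 had 16690 CPM, Dnmt3a KO 3 and 4 had 14510 and 12450, and Tet2 KO 1 and 2 had 11020 and 12380. Taken over all runs, the groups overlapped, with means of 12500 ± 2169 CPM (SD, n = 5) in Rosa KO, 9332 ± 4943 in Asxl1 KO, 11100 ± 2907 in Dnmt3a KO and 9333 ± 2871 in Tet2 KO (n = 4 each).

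**Figure D2:**
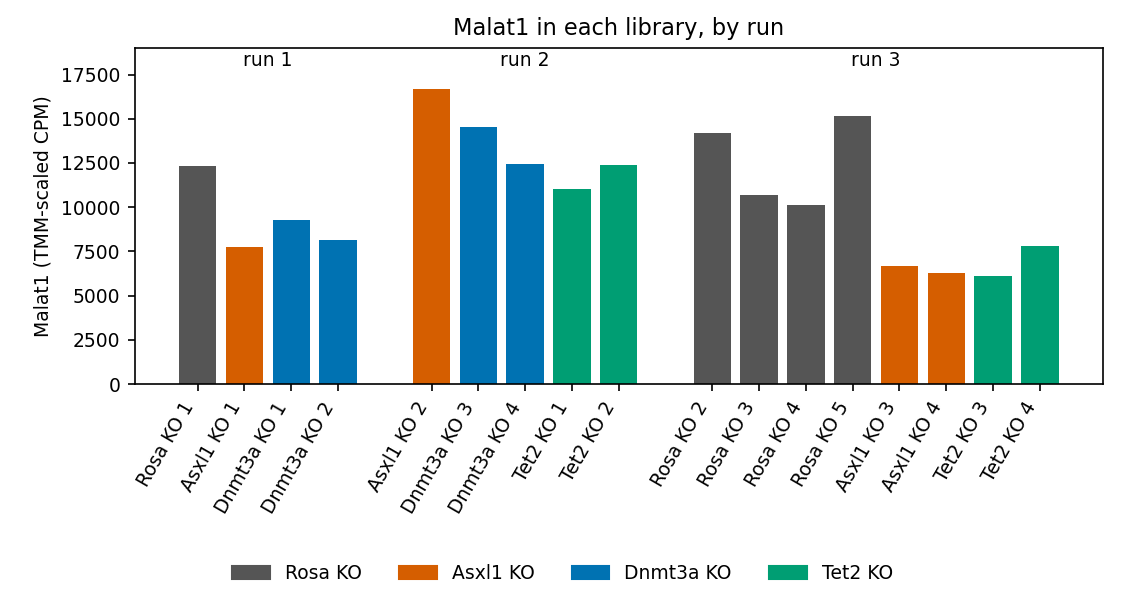
Malat1 in CPM (TMM-scaled) in each of the 17 libraries, ordered by run and coloured by group. In run 3 the 4 knockout libraries reach at most 7807 CPM and the 4 Rosa KO libraries at least 10140, while run 2, with 11020 to 16690 CPM, has no Rosa KO library.

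With group and run as terms, Malat1 fell in Asxl1 KO by a log2 fold change of -0.77 ± 0.15 (SE, 95% interval -1.08 to -0.46, adjusted p = 0.00583, edgeR quasi-likelihood test, Benjamini-Hochberg). It fell in Tet2 KO by -0.90 ± 0.15 (interval -1.22 to -0.58, adjusted p = 0.00201 by the same edgeR test). In Dnmt3a KO the log2 fold change was -0.70 ± 0.17 (interval -1.06 to -0.35) with an adjusted p of 0.108, which did not pass. These correspond to 0.586, 0.536 and 0.614 times the Rosa KO level. The 3 comparisons share the Rosa KO libraries.

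Malat1 was the only member that passed in any comparison between groups. In Asxl1 KO against Rosa KO 1 of 9 members passed (1.64% of all tested genes did), in Tet2 KO 1 of 9 (1.47%) and in Dnmt3a KO 0 of 9 (0.216%). In each of the 3 comparisons 2 members had an unadjusted edgeR p under 0.05, a cut for which the share of all tested genes was not counted. In Dnmt3a KO DESeq2 called 1 member, Malat1, at an adjusted p of 0.0307, among 151 genes called in all. A test for any difference among the 4 groups called Malat1 alone (adjusted p = 0.00279, edgeR; 1.79% of tested genes). The median log2 fold change of the 9 members was -0.01 in Asxl1 KO, -0.38 in Dnmt3a KO and 0.12 in Tet2 KO, beside 0.00, 0.00 and -0.02 over all tested genes.

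Both Malat1 calls rested on the run term, and that in Asxl1 KO also on Asxl1 KO 3 and 4, the libraries with the most genes detected. Without that term the log2 fold change was -0.42 in both Asxl1 KO (adjusted p = 0.68, edgeR) and Tet2 KO (adjusted p = 1). Without Asxl1 KO 3 the Asxl1 value was -0.72 (adjusted p = 0.0567, edgeR) and without Asxl1 KO 4 it was -0.68 (0.0533). Within run 3 alone, the values were -0.96 (adjusted p = 0.00123, edgeR) for Asxl1 KO and -0.85 (0.006) for Tet2 KO, and within run 1 alone -0.68 (0.0341) for Asxl1 KO and -0.49 (0.271) for Dnmt3a KO. In run 1 the lone Rosa KO and Asxl1 KO libraries are assumed to vary like the 2 Dnmt3a KO libraries. The Tet2 KO call held on leaving out any 1 of the 17 libraries, with adjusted p of at most 0.0314 (edgeR).

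Levels of cell type markers also differed between the groups. The 4 NK cell markers (Ncr1, Klrb1c, Klre1, Gzma) summed to 2251 to 3191 CPM in Rosa KO, 634.9 to 835.9 in Asxl1 KO, 725.1 to 1505 in Dnmt3a KO and 1560 to 2353 in Tet2 KO. Of the 4, 3 fell in Asxl1 KO (0.821% of tested genes fell), 3 in Dnmt3a KO (0.18%) and 2 in Tet2 KO (0.483%). Most of the sum was Gzma, a granzyme that CD8 T cells also make, while Ncr1, a receptor typical of NK cells, had 0 to 2.94 CPM in Rosa KO, 0 to 1.45 in Asxl1 KO, 1.06 to 10.6 in Dnmt3a KO and 0.362 to 2.83 in Tet2 KO. Of the 8 CD8 T cell markers, 4 rose in Asxl1 KO (0.814% of tested genes rose), 0 in Dnmt3a KO (0.036%) and 1 in Tet2 KO (0.987%). In run 3 they summed to 7448 and 7845 CPM in Asxl1 KO, 5064 and 4786 in Tet2 KO and 4669 to 5217 in Rosa KO. The 5 plasma cell markers summed in run 3 to 657.4 to 711.1 CPM in Rosa KO and were lower in all 4 knockout libraries, at 415.9 and 439.8 in Asxl1 KO and 610 and 527.3 in Tet2 KO, though 0 of 5 passed in either knockout. The part of these cells in the Malat1 values was not tested. The B cell markers in run 3 summed to 4289 to 4818 CPM in Rosa KO, 1499 and 1219 in Asxl1 KO 3 and 4, and 5323 and 4658 in Tet2 KO 3 and 4. With their level as a covariate, Malat1 had log2 fold changes of -0.74 in Asxl1 KO (adjusted p = 0.009, edgeR) and -0.89 in Tet2 KO (0.0023).

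The knockouts were not separated from each other in Malat1. Its log2 difference was -0.07 (95% interval -0.39 to 0.26) for Asxl1 KO minus Dnmt3a KO, 0.13 (-0.18 to 0.44) for Asxl1 KO minus Tet2 KO and 0.20 (-0.15 to 0.54) for Dnmt3a KO minus Tet2 KO. No member passed in these 3 comparisons, where 0.353, 0.562 and 0.0937% of tested genes did. At an unadjusted p under 0.05 the edgeR test had 1, 0 and 2 members, and the share of all tested genes at this cut was not counted. In Asxl1 KO against Dnmt3a KO DESeq2 called 1 member, among 219 genes called in all.

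**Figure D3:**
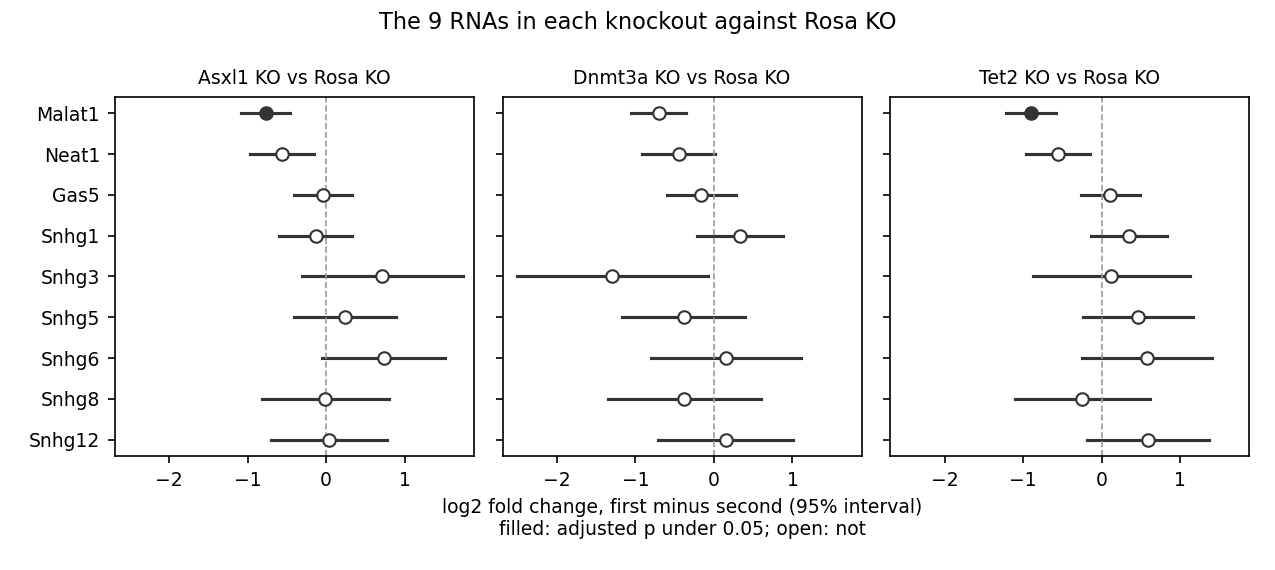
Log2 fold change of each of the 9 RNAs in each knockout against Rosa KO, from the fit with group and run (edgeR). Points are estimates, lines 95% intervals, filled points passed at an adjusted p under 0.05; Malat1 is filled in Asxl1 KO and Tet2 KO, and all other points are open.

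Neat1 (NCBI gene 66961, chr19:5824708-5845480, minus strand), for which RefSeq lists 2 transcripts, varied mainly by run. In run 1 it had 77.84 CPM in Rosa KO 1, 37.2 in Asxl1 KO 1 and 47.75 and 39.73 in Dnmt3a KO 1 and 2. In run 2 it had 427.8 CPM in Asxl1 KO 2, 410.9 and 357 in Dnmt3a KO 3 and 4, and 245.7 and 302.9 in Tet2 KO 1 and 2. In run 3 it had 250.8, 165.5, 209.1 and 184.8 CPM in Rosa KO 2 to 5, 149 and 119.9 in Asxl1 KO 3 and 4, and 149.1 and 197.7 in Tet2 KO 3 and 4. The 3 runs did not overlap, apart from run 3's highest library, Rosa KO 2, lying above run 2's lowest, Tet2 KO 1. In run 1 every knockout library was below the only Rosa KO library, and in run 3 both Asxl1 KO libraries were below all Rosa KO libraries while Tet2 KO overlapped them. The share of tested genes with these orders of libraries was not counted.

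Between groups, the log2 fold changes of Neat1 against Rosa KO were -0.57 ± 0.20 (SE) in Asxl1 KO, -0.45 ± 0.22 in Dnmt3a KO and -0.56 ± 0.20 in Tet2 KO. None passed by the edgeR test, with adjusted p of 0.142, 0.636 and 0.204. Without the run term the same values were 0.05, 0.27 and 0.33, on the other side of 0. Without Asxl1 KO 2 the Asxl1 KO value was -0.71 with an adjusted p of 0.0491 (edgeR). Neat1 was thus on the same side as Malat1 in all 3 comparisons, which share their control.

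More members differed among runs than among groups. By the edgeR test for any difference, 7 of 9 members differed among runs (23.6% of all tested genes did) and 1 of 9 among groups. Run, fitted without group, accounted for 90.4% of the variance of Neat1 in log2 CPM, 85.8% for Snhg5, 84.2% for Snhg1, 81.8% for Gas5, 73.5% for Snhg12 and 64.6% for Snhg8, beside a median of 25.6% over tested genes. For Snhg6 the share was 48.4%, for Malat1 30.1% and for Snhg3 8.8%. Group, fitted without run, accounted for 45.6% for Snhg3, where it exceeded run. It accounted for 41.4% for Snhg5, 34.4% for Gas5, 30.7% for Snhg8, 28.8% for Snhg6, 26.8% for Snhg12, 23.4% for Malat1, 21.4% for Snhg1 and 7.54% for Neat1 (median of tested genes 19%). Runs do not balance the groups, so the shares by run and by group overlap. What else differed between the runs is not stated in the labels, and run and whatever goes with it cannot be told apart.

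Gas5 (NCBI gene 14455, chr1:161034601-161038539, plus strand) hosts box C/D snoRNAs and is known as an RNA that builds up when growth arrests. In run 1 it had 223.3 CPM in Rosa KO 1, 401.5 in Asxl1 KO 1 and 255.3 and 237.4 in Dnmt3a KO 1 and 2. In run 2 it had 315.9 in Asxl1 KO 2, 390 and 352.3 in Dnmt3a KO 3 and 4, and 487.1 and 355.5 in Tet2 KO 1 and 2. In run 3 it had 548.6, 776.9, 652.8 and 671.8 in Rosa KO 2 to 5, 556.2 and 520.6 in Asxl1 KO 3 and 4, and 720.1 and 615.9 in Tet2 KO 3 and 4. Every run 3 library was above every other library, which was so for 0.54% of tested genes and for 4 members: Gas5, Snhg1, Snhg5 and Snhg8. Within run 3 the groups overlapped.

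Snhg1 (NCBI gene 83673, chr19:8723487-8726326, plus strand), a host of box C/D snoRNAs, followed the same order of runs. It had 24.67 to 46.23 CPM in the 4 libraries of run 1, 52.09 to 106.5 in the 5 of run 2 (median 98.45) and 112.1 to 187.8 in the 8 of run 3 (median 132.1), with no overlap between runs. At most 0.54% of tested genes can show this order, the share with every run 3 library above every other library. In run 3 the Tet2 KO libraries had 187.8 and 185.8 CPM, above the Rosa KO range of 112.1 to 175.2, and Asxl1 KO had 139.6 and 116.4. How many tested genes had Tet2 KO above Rosa KO in this way was not counted. Against Rosa KO over all runs the Tet2 KO log2 fold change was 0.34 ± 0.23 (adjusted p = 0.628, edgeR), which did not pass.

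Snhg5 (NCBI gene 72655, chr9:88521052-88522897, minus strand), whose introns hold box C/D snoRNAs, had the widest span. Run 1 had 7.897 CPM in Rosa KO 1, 8.514 in Asxl1 KO 1 and 1.901 and 8.597 in Dnmt3a KO 1 and 2. Run 2 had 15.42 to 32.49 CPM and run 3 36.86 to 70.54, so that the 3 runs did not overlap, an order that at most 0.54% of tested genes can show. In run 3 the 4 knockout libraries lay between 67.78 and 70 CPM, within the Rosa KO range of 36.86 to 70.54.

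Snhg8 (NCBI gene 69895, chr3:123507552-123508336, minus strand), the host of Snora24, had 4.296 to 26.22 CPM in run 1, 13.63 to 27.02 in run 2 and 27.65 to 73.05 in run 3, so runs 1 and 2 overlapped. Snhg12 (NCBI gene 100039864, chr4:132308678-132311024, plus strand), which holds 4 annotated snoRNAs, had 5.779 to 14.93 CPM in run 1, 11.58 to 28.49 in run 2 and 24.52 to 61.95 in run 3. Every run 3 library of Snhg12 was above every run 1 library, as for Neat1, Gas5, Snhg1, Snhg5 and Snhg8 and for 3.72% of tested genes. Snhg6 (NCBI gene 73824, chr1:9942025-9944118, minus strand), the host of Snord87, overlapped between all runs, with 6.769 to 22.95, 13.7 to 42.28 and 16.37 to 37.58 CPM in runs 1 to 3.

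Snhg3 (NCBI gene 399101, chr4:132351933-132353686, minus strand), the host of Snora73a and Snora73b, stood apart in 1 library. Asxl1 KO 1 had 91.98 CPM, while Asxl1 KO 2 to 4 had 22.81, 20.73 and 22.77. Rosa KO 1 to 5 had 7.413, 20.4, 21.35, 27.67 and 23.42 CPM, Dnmt3a KO 1 to 4 had 9.239, 6.994, 15.77 and 12.82, and Tet2 KO 1 to 4 had 33.7, 30.07, 21.86 and 19.68. Every Dnmt3a KO library was below every Asxl1 KO and every Tet2 KO library, but the share of tested genes with this order was not counted. Dnmt3a KO has no library in run 3. In run 1, Rosa KO 1 (7.413 CPM) was about as low as Dnmt3a KO 1 and 2, with a log2 fold change of 0.14 within that run. Asxl1 KO minus Dnmt3a KO gave a log2 difference of 2.01 ± 0.50 (adjusted p = 0.0959, edgeR), which did not pass. DESeq2 called it (adjusted p = 0.00937), and leaving out 1 library moved it to between 0.52 and 2.44. Asxl1 KO 1 also had the highest sum of erythroid markers, 2314 CPM against 17.41 to 319.2 in the other libraries, and their part in its Snhg3 value was not tested.

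**Figure D4:**
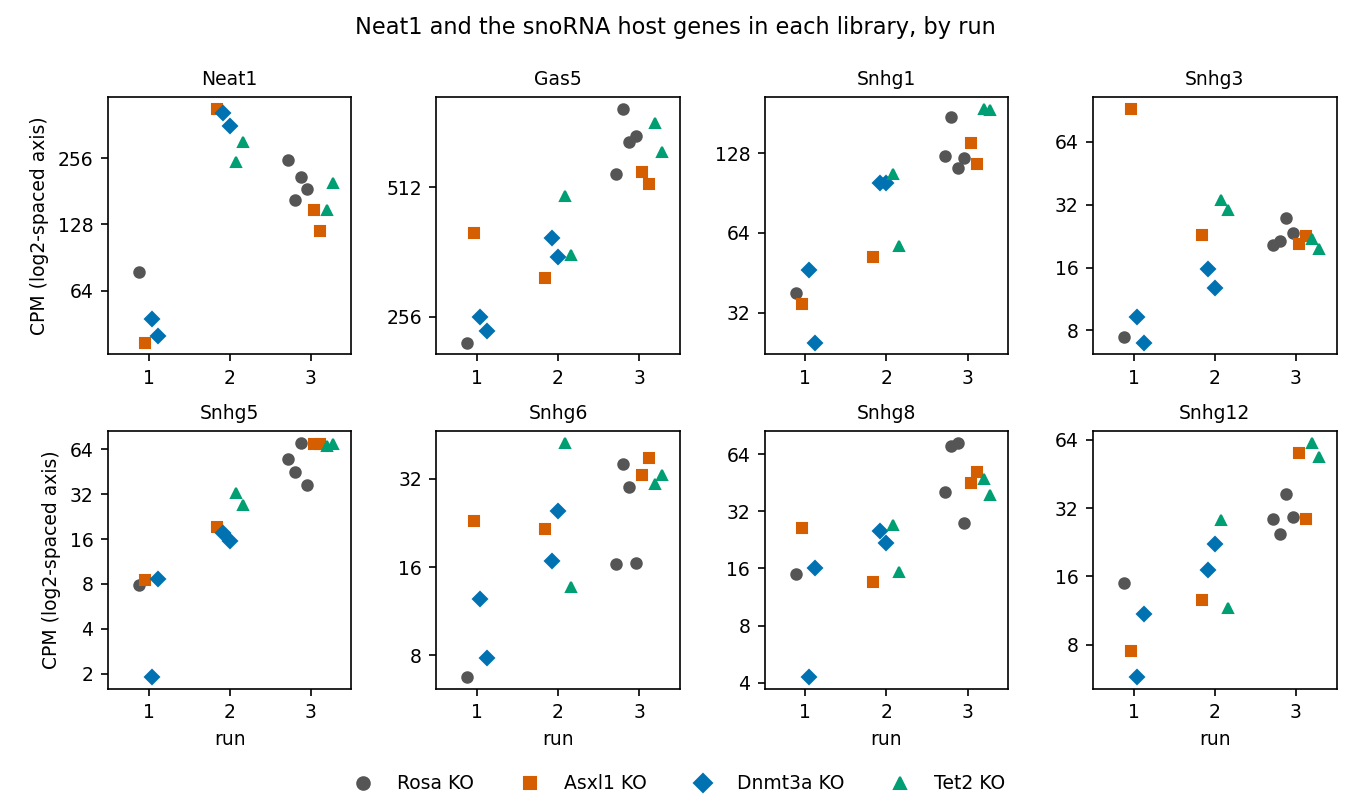
CPM of Neat1 and the 7 snoRNA host genes in each library, by run, on log2-spaced axes, with colour and shape for the group. Snhg1 and Snhg5 show 3 runs without overlap, and Snhg3 shows Asxl1 KO 1 at 91.98 CPM apart from the rest.

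The comparisons between runs, with group as the other term, give these shifts in size. From run 1 to run 2, 4 of 9 members rose (7.09% of tested genes did): Neat1 by a log2 difference of 2.98 ± 0.21, Snhg5 by 1.52 ± 0.35, Snhg1 by 1.06 ± 0.24 and Malat1 by 0.78 ± 0.15, with adjusted p from the edgeR test of 1.27e-09, 0.00358, 0.00322 and 0.000671. From run 1 to run 3, 7 of 9 rose (5.78% of tested genes). The log2 differences were 2.88 for Snhg5, 2.07 for Snhg1, 1.90 for Snhg12, 1.77 for Neat1, 1.61 for Snhg8, 1.25 for Snhg6 and 1.07 for Gas5, and only Malat1 (-0.14) and Snhg3 (-0.40) did not pass.

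From run 2 to run 3, both nuclear RNAs fell and 4 of the 7 host genes rose. Malat1 fell by 0.92 and Neat1 fell by 1.21 on the log2 scale (5.57% of tested genes fell), with adjusted p of 7.23e-05 and 7.3e-05 by the edgeR test. Snhg5 rose by 1.37, Snhg12 by 1.23, Snhg1 by 1.02 and Gas5 by 0.69 (6.49% of tested genes rose). The other host genes did not pass, with log2 differences of 1.05 for Snhg8, 0.39 for Snhg6 and -0.53 for Snhg3 (edgeR adjusted p = 0.101, 0.604 and 0.56). Cell type markers also moved between runs. Of 8 CD8 T cell markers, 6 fell from run 1 to run 2 (8.46% of tested genes) and 0 rose, and from run 2 to run 3 2 rose and 0 fell. Of 5 plasma cell markers, 2 rose and 1 fell from run 2 to run 3. Of 3 tested erythroid markers, 2 fell from run 1 to run 3 (7.76%) and 0 rose. The part of these cells in the shifts was not tested. The B cell markers had a median log2 difference of 0.96 between runs 2 and 3, with 0 of 8 passing. With their level as a covariate Gas5 had 0.49 (edgeR adjusted p = 0.154) and Snhg12 1.22 (0.101), neither of which passed, and Snhg6 between runs 3 and 1 had 1.07 (0.0752). The median over the 7 host genes was 1.02, beside 0.02 over all tested genes. The 3 comparisons between runs share libraries. In fits that left out 1 of the 17 libraries, the Snhg6 call against run 1 held in 7 of 17, that of Snhg8 in 16, the Gas5 call of run 3 against run 2 in 14 and that of Snhg12 in 11, and the other calls between runs held in 17 of 17.

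**Figure D5:**
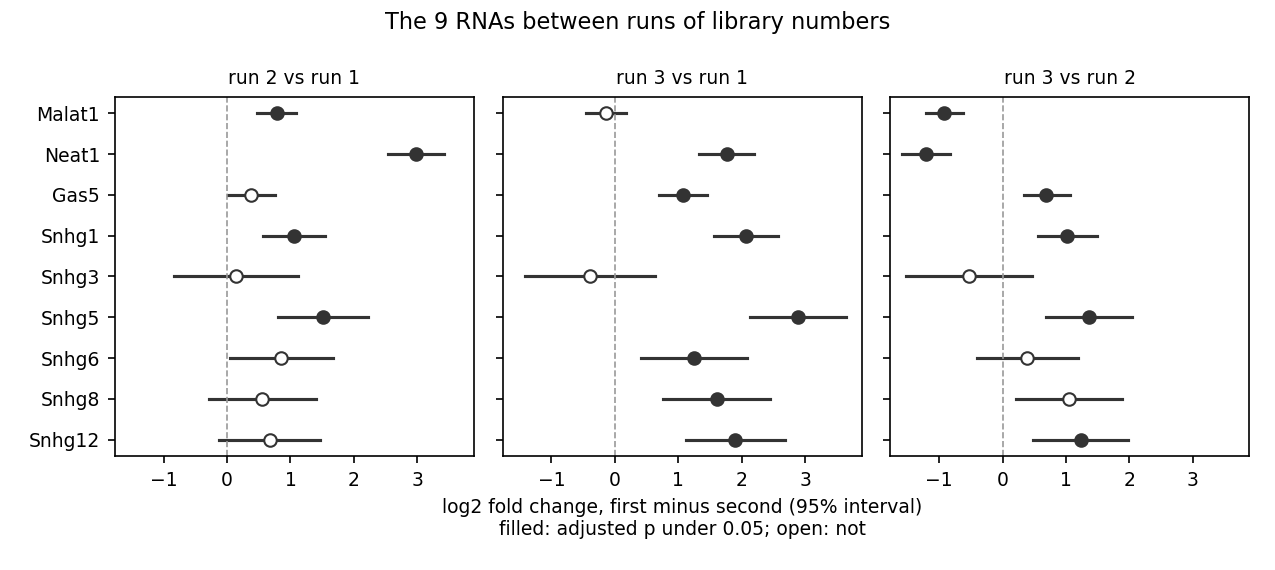
Log2 difference of each of the 9 RNAs between runs, from the fit with group and run (edgeR), with 95% intervals. Filled points passed at an adjusted p under 0.05; in run 3 against run 2, Malat1 and Neat1 lie below 0 and Gas5, Snhg1, Snhg5 and Snhg12 above it.

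Against Rosa KO the 7 host genes showed no call. Their log2 fold changes lay between -0.13 (Snhg1) and 0.73 (Snhg6) in Asxl1 KO, between -1.29 (Snhg3) and 0.33 (Snhg1) in Dnmt3a KO and between -0.25 (Snhg8) and 0.59 (Snhg12) in Tet2 KO. In Asxl1 KO 4 of 7 were above 0, in Dnmt3a KO 3 and in Tet2 KO 6. Their 95% intervals were wide: Snhg12 in Tet2 KO ran from -0.19 to 1.36 and Snhg6 in Asxl1 KO from -0.05 to 1.52. Gas5, the most abundant host, had -0.04 (-0.41 to 0.33), -0.16 (-0.60 to 0.28) and 0.11 (-0.27 to 0.49) in Asxl1, Dnmt3a and Tet2 KO.

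Of the 26 snoRNAs that RefSeq places inside a member, 8 could be read from the tables, and 1 of these had counts. The other 18, among them Snora73a and Snora73b in Snhg3 and all of those in Snhg5, were not analysed here. Of 115 snoRNA rows in the tables, 53 had a count of 0 in every library. Of the 8 snoRNA rows that lie inside a member, 7 (Snord47 in Gas5, Snord22 in Snhg1, Snora24 in Snhg8, and Snora16a, Snora44, Snora61 and Snord99 in Snhg12) had 0 counts in all 17 libraries. A count of 0 allows up to 3 counts, or 0.0737 to 0.453 CPM (unscaled) depending on the library, for counting error only. Only Snord87, inside Snhg6, had counts, 121 in total and 0 to 34 per library, in 15 libraries. Its log2 fold changes against Rosa KO were -0.43 ± 1.55, 0.01 ± 0.85 and 0.91 ± 1.60 in Asxl1, Dnmt3a and Tet2 KO, so that no change could be measured at this depth. It is shown because it is the only product of a member that can be set beside its host, with box C and box D, the motifs that bind the snoRNP proteins, in capitals (GENCODE vM21, chr1:9942463-9942549, minus strand, 87 bases).
Snord87: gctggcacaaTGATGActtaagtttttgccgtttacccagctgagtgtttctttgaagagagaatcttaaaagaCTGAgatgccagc

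Genes beside the members were read from the same fit, and no difference between a member and its neighbour was tested. Zbtb37 overlaps Gas5 on the other strand, and Mcmdc2 overlaps Snhg6 on the other strand. Whether counting used the strand is not given in the sources used here, so reads there could have been shared or left out. Zbtb37 had log2 fold changes of -0.55, -0.54 and -0.90 against Rosa KO in Asxl1, Dnmt3a and Tet2 KO. None of these passed (edgeR adjusted p = 0.27, 0.669 and 0.0851). It rose by 1.83 from run 1 to run 2, where Gas5 did not pass (0.38, edgeR adjusted p = 0.16). From run 1 to run 3 Zbtb37 rose by 0.92, where Gas5 also rose. From run 2 to run 3 it fell by 0.91, where Gas5 rose. Slc3a2, which starts 117 bases from the start of Snhg1 and runs the other way, passed in no comparison with Rosa KO and in none between runs, while Snhg1 passed in all 3 between runs. Phactr4 near Snhg3, Prss12 near Snhg8 and Trnau1ap near Snhg12 also passed in none of these 6 comparisons. Trnau1ap had log2 differences of 1.03 from run 1 to run 3 and 1.11 from run 2 to run 3 (edgeR adjusted p = 0.0925 and 0.0544), on the same side of 0 as Snhg12.

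Other genes of the same pathways were taken from lists. Of 12 tested other noncoding snoRNA hosts (such as Zfas1 and Dancr), 0 passed in any knockout against Rosa KO, and 3 rose from run 1 to run 2 (7.09% of tested genes did), 7 from run 1 to run 3 (5.78%) and 2 from run 2 to run 3 (6.49%). Levels behind these were low: Snhg20 averaged 0.038 CPM in run 1 and 3.32 in run 3, and Zfas1, the most abundant of them, 38.7 and 81.1. Of 15 proteins of the snoRNP and its assembly, 0 passed against Rosa KO, and from run 2 to run 3 4 rose (6.49%), among them the methyltransferase Fbl by 1.05 ± 0.26 (adjusted p = 0.00831, edgeR). In the same list 3 fell from run 1 to run 2 (8.46%), among them the H/ACA protein Nhp2 at -1.03 ± 0.29, and 1, the assembly factor Ruvbl2, fell from run 1 to run 3 (7.76%). Of 21 genes of nonsense-mediated decay, 0 passed against Rosa KO. Between runs 1 rose from run 1 to run 2 (7.09% of tested genes did), and 1 rose (5.78%) and 2 fell (7.76%) from run 1 to run 3. From run 2 to run 3, 2 rose (6.49%) and 2 fell (5.57%). For a list of 21 genes these counts lie near the shares over all tested genes. The kinase Smg1 rose by 1.42 ± 0.16 from run 1 to run 2 and fell by 0.82 from run 2 to run 3.

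Of 18 nuclear speckle and splicing genes, 1 fell in Asxl1 KO (0.821% of tested genes fell), the SR protein kinase Clk1 (log2 fold change -0.64 ± 0.15, adjusted p = 0.0253, edgeR), and 0 in Dnmt3a KO and Tet2 KO. Their median log2 fold changes were -0.22, -0.15 and -0.15. Between runs, 10 of 18 rose from run 1 to run 2 (7.09% of tested genes) and 0 fell, 10 rose (5.78%) and 2 fell (7.76%) from run 1 to run 3, and 4 fell from run 2 to run 3 (5.57%) and 0 rose, Srrm2 by -0.91 ± 0.17. Of 18 paraspeckle proteins 0 passed against Rosa KO, while 4 rose from run 1 to run 2 (7.09% of tested genes), where Neat1 rose by 2.98. From run 1 to run 3, 5 rose (5.78%) and 3 fell (7.76%). From run 2 to run 3, where Neat1 fell, 3 rose (6.49%) and 3 fell (5.57%). Of 14 tested other nuclear long noncoding RNAs, 1 passed against Rosa KO, Ifngas1 (an RNA transcribed next to Ifng) in Asxl1 KO (3.12 ± 0.70, adjusted p = 0.0201, edgeR), where 0.814% of tested genes rose. From run 1 to run 2 7 of 14 rose (7.09% of tested genes), and from run 1 to run 3 4 rose (5.78%). From run 2 to run 3 3 fell (5.57%), among them the imprinted Kcnq1ot1, with means of 106, 297 and 123 CPM in runs 1 to 3.

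The 38 TOP translation genes, ribosomal proteins and translation factors, are set beside the host genes because many host genes are known to start with a TOP tract as these genes do. In Tet2 KO 13 of 38 rose against Rosa KO (0.987% of tested genes rose), with a median log2 fold change of 0.57 and Rplp0 at 0.90 ± 0.17 (adjusted p = 0.00593, edgeR). In Asxl1 KO 2 of 38 rose (0.814%), and in Dnmt3a KO 0 (0.036%). From run 1 to run 2 35 of 38 fell (8.46%), with a median of -0.94, where the host genes had a median of 0.67. From run 2 to run 3 35 of 38 rose (6.49%), with a median of 1.02, and the host genes also had a median of 1.02. From run 1 to run 3 4 of 38 rose (5.78%) and 4 fell (7.76%), with a median of 0.07, where the host genes had 1.61. The difference between the lists was not tested.

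The genes most like each member over the 17 libraries are given by Pearson's r of log2 CPM, as a description: the libraries share runs, and the genes were picked for their r. For Malat1 these were Slf2 (r = 0.92) and the histone methyltransferase Kmt5b (0.90), and r was 0.88 and 0.86 with the mean of each run taken out. For Neat1 they were Ogt (0.96), the enzyme that adds O-GlcNAc, and Relch (0.96), and r was 0.55 and 0.74 with run means taken out. For Snhg1 they were the stress-response factor Atf4 (0.96) and Snhg20 (0.92), with 0.75 and 0.40 with run means taken out. For Snhg5 they were the interferon regulatory factor Irf3 (0.95) and the RNase MRP RNA Rmrp (0.93), with 0.70 and 0.47. For Snhg3 they were Snrnp70 (0.92) and Zfp511 (0.87), with 0.93 and 0.87 with run means taken out. Within the 8 libraries of run 3, without Asxl1 KO 1, r was 0.42 and -0.23.

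For the remaining hosts the nearest genes were Mir1938 (0.93) and Gtf2a2 (0.92) for Gas5, Mrps31 and Aggf1 (both 0.86) for Snhg6, Gadd45b (0.89) and Snord104 (0.88) for Snhg8, and Pdcd6 (0.90) and Irf3 (0.89) for Snhg12. With run means taken out, r was 0.49 and 0.83 for Gas5 and 0.75 for both genes of Snhg6. It was 0.69 and 0.64 for Snhg8, and 0.68 and 0.74 for Snhg12. Within the 8 libraries of run 3, r was 0.86 and 0.89 for Malat1 and 0.49 and 0.70 for Neat1. For Snhg1 it was 0.31 and 0.51 there, for Snhg5 0.80 and 0.21 and for Snhg8 0.49 and 0.05. For Gas5 it was 0.69 and 0.84, for Snhg6 0.75 and 0.56 and for Snhg12 0.76 and 0.55.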

How the data were processed

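RNA-seq of 17 libraries was analysed. For each library the authors deposited unnormalized read counts by gene. STAR 2.5.3a, DESeq2 1.26.0 and build mm10 are listed in the submitters' processing notes. How reads were counted (program, annotation, strand) is not given in the sources used here. The members and gene lists were chosen with earlier results of these data known. The robust quasi-likelihood test of edgeR 4.0.16 (R 4.3.3), after TMM scaling, was fitted to all 17 libraries with terms for group and run (11 residual degrees of freedom). Genes passing filterByExpr (minimum count 10, total 15) numbered 13881. Benjamini-Hochberg adjustment covered all of these, at a threshold of 0.05, and log2 CPM used a prior count of 2. The step was tested on simulated data. Total counts ran from 6625833 to 40701203 per library. Over 28 pairs of libraries of a group, the chi-square per degree of freedom was 19.7 to 258, so none was a duplicate. All 9 members are named, with up to 4 passing genes per list and knockout (2 between runs), neighbours within 5 kb and the 2 genes most like each member. Mir1938 and Snord104 are annotated small RNAs. Alternatives covered the run term, replicate number, scaling, filter, tool, libraries, runs and a B cell covariate. NCBI gene identifiers matched RefSeq GRCm38.p6, another name of mm10, for 24570 of 24594.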

Additional observations from a re-analysis of the deposited data

Results flagged for a closer look

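In 36 sets (9 members in 4 groups), 2 libraries stood apart from the rest of their group by Dixon's test at 95%, which chance alone gives in about 1 of 20 sets. Malat1 in Asxl1 KO was 16690 CPM in Asxl1 KO 2, against 6262 to 7733 in the other 3 libraries, a gap of 0.859 of the group's range. Asxl1 KO 2 is the Asxl1 KO library of run 2, where all 5 libraries had 11020 CPM or more. Snhg3 in Asxl1 KO was 91.98 CPM in Asxl1 KO 1, against 20.73 to 22.81, a gap of 0.971 of the range. Without Asxl1 KO 1, the log2 fold change of Snhg3 in Asxl1 KO against Rosa KO was -0.03 in place of 0.71, and neither passed.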

How the results depend on the processing

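Over all settings, 58 member values gave 1470 comparisons with the reported value, of which 1349 kept direction and side of the threshold, 39 lost and 17 gained a call, and 65 changed sign. The changes of sign belonged to 21 values, none of which had passed. Snhg5 had only 50 counts in Dnmt3a KO 1, and Dnmt3a KO shares a run with only 1 Rosa KO library. Causes of the changes below were not tested. Without the run term, 0 members passed in Asxl1 KO or Tet2 KO against Rosa KO or among all groups. Of all tested genes 23, 23 and 60 passed there. Neat1 then had log2 fold changes of 0.05, 0.27 and 0.33 in Asxl1, Dnmt3a and Tet2 KO, Snhg5 -0.05 and Snhg12 -0.03 in Asxl1 KO, Snhg1 -0.77, Snhg6 -0.45 and Snhg12 -0.94 in Dnmt3a KO, and Gas5 -0.08 in Tet2 KO. With only the 2 groups compared, Asxl1 KO gave Gas5 0.01 and Snhg8 0.12, Dnmt3a KO gave Gas5 0.15, Snhg1 -0.09, Snhg3 0.13 and Snhg12 -0.84, Tet2 KO gave Snhg3 -0.17, and Malat1 in Asxl1 KO minus Dnmt3a KO was 0.07. Run 1 was chosen for Asxl1 KO after seeing the data, and it holds a lone Asxl1 KO and a lone Rosa KO library. Within it, Asxl1 KO against Rosa KO gave Malat1 -0.68 and Snhg3 3.63, and Snhg3 was 3.49 against Dnmt3a KO. Both Snhg3 values rest on Asxl1 KO 1, the library with 91.98 CPM. There Gas5 was 0.84, Snhg8 0.81 and Snhg12 -0.99 in Asxl1 KO, and Gas5 0.15, Snhg1 -0.09, Snhg3 0.14 and Snhg12 -0.83 in Dnmt3a KO. Within run 3, Snhg3 was -0.09 in Asxl1 KO and -0.16 in Tet2 KO, and Malat1 in Asxl1 KO minus Tet2 KO was -0.11. Without run 1 and within run 2, also added after seeing the data, Snhg3 was -0.21 in Asxl1 KO and -0.06 in Tet2 KO, Snhg8 0.14 in Dnmt3a KO, and Malat1 in Asxl1 KO minus Dnmt3a KO 0.07 and 0.32. With the B cell covariate, Gas5 was 0.05 and Snhg8 0.09 in Asxl1 KO, and Malat1 in Asxl1 KO minus Dnmt3a KO 0.01. With no filter on low counts, and with DESeq2, 1 member passed in Dnmt3a KO against Rosa KO (Malat1) and 1 in Asxl1 KO against Dnmt3a KO (Snhg3), and with no filter 2 passed among all groups.

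Leaving out 1 library gave 0 to 2 members passing in Asxl1 KO against Rosa KO. There were 0 without Asxl1 KO 3 or 4 (80 and 123 of all genes called) and 2 without Asxl1 KO 2 (373). In Asxl1 KO against Dnmt3a KO there were 0 to 1, with 1 (Snhg3) without Rosa KO 1 or Asxl1 KO 2 (46 and 236). Among all groups there were 1 to 2, with 2 without Rosa KO 1 or Asxl1 KO 2 (303 and 507). Values that changed sign ranged, in Asxl1 KO, from -0.28 to 0.06 for Gas5, -0.03 to 1.08 for Snhg3, -0.38 to 0.18 for Snhg8 and -0.35 to 0.48 for Snhg12. In Dnmt3a KO they ranged from -0.19 to 0.47 for Snhg6, -0.62 to 0.03 for Snhg8 and -0.02 to 0.87 for Snhg12, and in Tet2 KO from -0.05 to 0.20 for Gas5 and -0.31 to 0.27 for Snhg3. Malat1 in Asxl1 KO minus Tet2 KO ranged from -0.06 to 0.26, and Snhg3 from -0.22 to 1.24 between runs 2 and 1 and from -1.16 to 1.07 between runs 3 and 1. The number of all genes called in Asxl1, Dnmt3a and Tet2 KO against Rosa KO, 227, 30 and 204, ranged over the other settings from 23 to 677, 0 to 151 and 23 to 408. Between knockouts the counts of 49 (Asxl1 minus Dnmt3a), 78 (Asxl1 minus Tet2) and 13 (Dnmt3a minus Tet2) ranged from 0 to 1301, 24 to 192 and 1 to 73. Between runs 2 and 1, 3 and 1, and 3 and 2, those of 2158, 1880 and 1674 ranged from 389 to 2860, 22 to 2683 and 479 to 2274. For any group 248 became 60 to 895 and for any run 3277 became 1115 to 3522. Scaling by total counts was also chosen after seeing the data. DESeq2 was not run for the tests of any group or any run, and run 3 holds no Dnmt3a KO library to compare.

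The replicate numbers did not pair the samples: over 24 same-numbered pairs the correlation of deviations from group means had a median of 0.04 and exceeded 0.1 in 2. With the replicate number as a block, 0 members passed in Asxl1 KO against Rosa KO (51 of all tested genes did) and among all groups (86 did). In Tet2 KO against Rosa KO 1 member passed, among 52 genes called. Between runs 3 and 1 it was 1 (Snhg1) among 22 genes, and between runs 3 and 2 it was 2 among 479. Under this block Snhg12 was -0.11 in Asxl1 KO and -0.18 in Dnmt3a KO, and Malat1 0.10 between runs 3 and 1.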
